A study of Homo sapiens with 8 samples.

Results

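Shared narrow H3K4me3 islands are autosomal islands of the HT H3K4me3 list that were narrower than 4000 bp, overlapped a SUDHL6 H3K4me3 island by at least 1 bp and overlapped no HT H3K27me3 island. Members were thus chosen by HT width and by the islands called for HT H3K4me3, SUDHL6 H3K4me3 and HT H3K27me3, and these values are a description only. They numbered 6927 of the 10914 HT H3K4me3 islands. HT and SUDHL6 are established lines of human diffuse large B cell lymphoma (DLBCL), both grown in serum-supplemented medium and untreated. ChIP-seq of H3K4me3, EZH2 and H3K27me3 was done with 1 library for each line and antibody, so neither line has a replicate, no test between the lines was made, and a value of a line is a value of 1 library. Ranges in parentheses after a share are exact Clopper-Pearson 95% intervals and cover counting error alone. Read depth is unknown. Each list held islands on hg19 with a score for every island. The score is the authors' own value, and the sources used here do not say what it counts. It was used to rank islands within a list, both as deposited and divided by width (score per kb), and dividing by width assumes that it adds up along an island.

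Trimethylation of lysine 4 of histone H3 (H3K4me3) is laid down around transcription start sites by methyltransferase complexes of the SET1 and MLL families, and a sharp H3K4me3 island is the usual sign of an active or poised promoter. Polycomb repressive complex 2, with EZH2 as its catalytic subunit, writes trimethylation of lysine 27 of histone H3 (H3K27me3), which marks repressed chromatin. In germinal centre B cells and in lymphomas derived from them, EZH2 is known for holding developmental and differentiation genes silent. Promoters with H3K4me3 and no H3K27me3 include those of most housekeeping genes. Islands were not assigned to genes here, since gene positions on hg19 were not used, and B cell marker genes were for the same reason not checked. Sequence of hg19 was not used here, so none is shown.

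Of the 10593 autosomal HT H3K4me3 islands, 9730 were narrower than 4000 bp, 7145 of these overlapped SUDHL6 H3K4me3, and 218 of those were left out because they overlapped HT H3K27me3. The 6927 members therefore made up nearly all narrow islands found in both lines. Island edges lie on a grid of 150 bp, so the widest members were 3900 bp wide. These 116 islands had a median partner width of 2925 bp, against 3075 bp for the 104 islands of 4050 bp just outside the limit.

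Nearly every member matched a single island in SUDHL6. Of the 6927 members, 6905 overlapped 1 SUDHL6 island and 22 overlapped 2, and the partner, the SUDHL6 island with the longest overlap, touched no other HT island for 6787. The members had 6868 different partners. The median member had 83.3% of its length covered by SUDHL6 H3K4me3, and 91.1% of members were covered over at least 50%. Centres of member and partner were 375 bp apart at the median, and in 76.4% they lay within 600 bp.

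Typical widths were the same in both lines, whereas widths of single islands agreed only loosely. The median was 2100 bp in HT and 2100 bp in SUDHL6, with middle ranges of 1650 to 2850 bp and 1500 to 3000 bp. The rule capped the HT width but not that of the partner, which reached 22500 bp, and 719 members (10.4%) had a partner of 4000 bp or wider. The width ratio, HT over SUDHL6, had a median of 0.963 and ran from 0.358 at the 5th percentile to 2.22 at the 95th. It lay within 1.5 times in either direction for 56.9% of members and within 2 times for 82.4%. HT was more than 2 times wider at 434 members, and SUDHL6 was more than 2 times wider at 787, a direction that the cap on HT favours. Spearman's rho between the widths was 0.31 over the 6927 members, which share libraries and the calling grid.

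**Figure D1:**
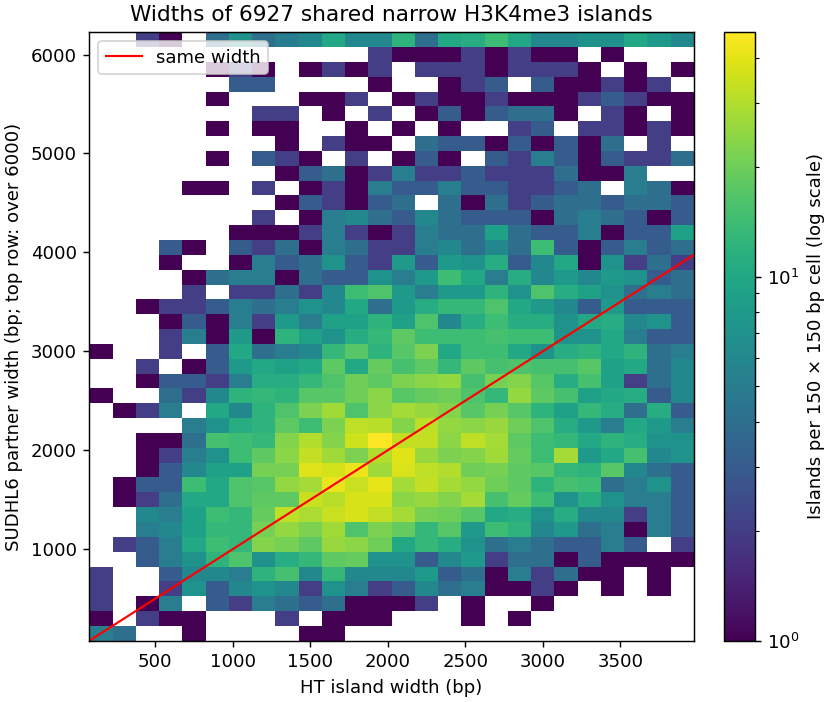
Width of each HT island (horizontal axis, bp) against the width of its SUDHL6 partner (vertical axis, bp), with colour for the number of islands per cell on a log scale, the top row for the 162 partners over 6000 bp, and a red line at equal width. Most islands lie around 2100 bp in both lines, with a wide scatter to both sides of the line.

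Partner width moved with member width by less than the members differed. HT members of 750 to below 1500 bp had partners with a median of 1800 bp, those of 1500 to below 2250 bp had 1950 bp, those of 2250 to below 3000 bp had 2400 bp, and those of 3000 to below 4000 bp had 2700 bp. Edges were rarely identical. Only 89 members (1.28%) had the same start and end in both lines, while 3118 had both edges within 600 bp. The median distance was 450 bp at the left and 450 bp at the right edge. The HT island lay inside a wider SUDHL6 island at 2217 members, the SUDHL6 island lay inside a wider HT island at 1991, and the islands were staggered at 2630.

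Scores agreed better between the lines than widths did. Spearman's rho between HT and SUDHL6 scores was 0.56, against 0.31 for widths and 0.37 for score per kb. Wider islands had higher scores in both lines, with rho between width and score of 0.71 in HT and 0.77 in SUDHL6. Ranks were then taken among the 6927 members in each line, as percentiles, so that both lines are ranked over the same islands. The median absolute difference in rank was 14.7 points, and 541 members (7.81%) differed by 50 points or more. The width ratio went with the rank difference across members (rho = 0.69). In the whole list of its own line, the median member stood at the 59.96th percentile of score in HT and the median partner at the 67.5th in SUDHL6.

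Members were then split by score into 4 groups of equal size in each line, from group 1 (lowest) to group 4 (highest). The ends of the ranking matched most often. Of HT group 4, 998 of 1732 members (57.6%) had a partner in SUDHL6 group 4 and 73 (4.21%) in group 1. Of HT group 1, 894 (51.6%) had a partner in SUDHL6 group 1 and 161 (9.30%) in group 4. Of HT groups 2 and 3, 35.3% and 35.9% had a partner in the same group. Crossing between the extremes was rare: 30 of the 677 members in the lowest 10% of HT ranks had a partner in the highest 10% of SUDHL6 ranks, and 5 of the 696 in the highest 10% of HT ranks had one in the lowest.

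**Figure D2:**
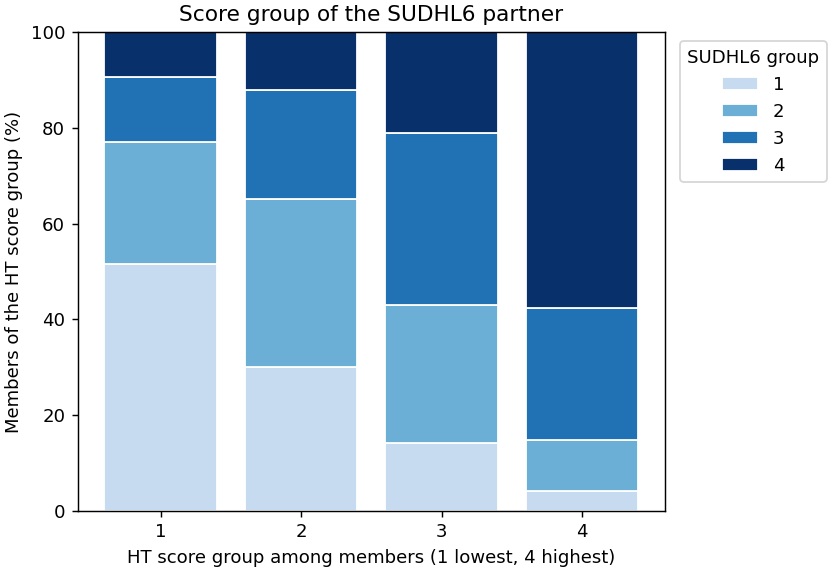
For each HT score group of members (horizontal axis, 1 lowest, 4 highest), the percentage of members (vertical axis) whose SUDHL6 partner falls in each SUDHL6 score group, from light for the lowest to dark for the highest. The matching group takes 51.6% of HT group 1 and 57.6% of HT group 4.

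The highest HT score among members belonged to an island of 3300 bp on chromosome 1 from 28831801 to 28835100. Its partner was 4050 bp wide, from 28831501 to 28835550, and stood at the 99.6th percentile of the partners' scores. HT EZH2 covered all 3300 bp of the member, and no SUDHL6 EZH2 lay there. The next, of 3900 bp on chromosome 10 from 75501601 to 75505500, had a partner at the 70.0th percentile. The other 3 of the leading 5 by HT score, on chromosomes 19, 1 and 22, had partners at the 98.6th, 98.7th and 97.8th percentiles, so all but the chromosome 10 island ranked near the top in both lines.

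The highest partner scores came from SUDHL6 islands much wider than the member, which the cap on HT width alone favours. On chromosome 22, a SUDHL6 island of 15150 bp from 23222401 to 23237550 held 2 members, of 2550 bp from 23229751 to 23232300 and of 1200 bp from 23232901 to 23234100. They stood at the 91.6th and 2.10th percentiles of HT score. On chromosome 6, a SUDHL6 island of 14400 bp from 36559951 to 36574350 held a member of 2700 bp at the 88.9th percentile, covered in full by HT EZH2. A further one of 14550 bp from 26193901 to 26208450 held 3 members, of 3600, 3900 and 3450 bp. In all these cases narrow HT islands lay in a broad SUDHL6 island, and the same SUDHL6 score stood for 2 members on chromosome 22 and for 3 in the last case.

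Members that ranked far apart differed in form, a contrast that the cap on HT width alone favours. At the 5 where SUDHL6 ranked highest above HT, the member was a small island overlapping a much wider SUDHL6 one. Each of these partners overlapped 2 or more HT islands, as did the partners of 2.02% of all members. The HT rank is thus that of 1 of several HT islands under the partner. An example is the member on chromosome 1 from 87793501 to 87793950 (450 bp), with ranks of 0.743 in HT and 99.4 in SUDHL6, as percentiles. Its partner was 7950 bp wide and also held a member from 87794551 to 87795600 (1050 bp). At the 5 where HT ranked highest above SUDHL6, both islands were narrow. On chromosome 12 from 12876451 to 12879900 (3450 bp) the ranks were the 92.9th percentile in HT and the 3.84th in SUDHL6, with a partner of 1800 bp from 12876301 to 12878100. On chromosome 4 from 71568601 to 71571900 (3300 bp) the ranks were the 90.1th percentile in HT and the 2.20th in SUDHL6, with a partner of 1200 bp. The nearest H3K27me3 island lay 152700 bp away in HT and 23865750 bp away in SUDHL6 at this last member.

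Differences in rank ran together along chromosome segments. Windows were set after the values were seen, first at 10 Mb and then at 20 Mb. In windows of 20 Mb with at least 20 members (125 windows, 6551 members), the median rank difference, HT minus SUDHL6, ran from -40.8 to 48.2 points, and was 10 points or more in HT's favour in 18 windows and in SUDHL6's in 25. Neighbouring windows had similar values (Pearson r = 0.72 over 95 pairs, and 0.81 over 68 pairs with windows of 10 Mb). By chromosome, the medians were lowest on 6 (-17.3), 2 (-16.0) and 7 (-12.2) and highest on 21 (11.1) and 5 (10.9). Members on chromosomes 6, 7 and 2 were also narrower than their partners, with median width ratios, HT over SUDHL6, of 0.720, 0.792 and 0.800.

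**Figure D3:**
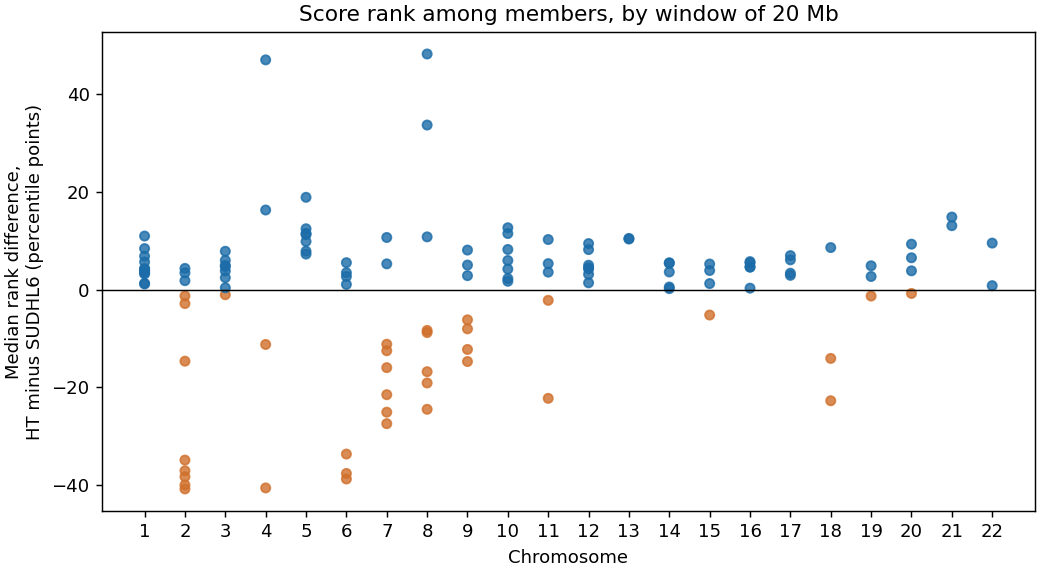
Median rank difference of members, HT minus SUDHL6 (vertical axis, percentile points), with 1 point for each window of 20 Mb with at least 20 members, by chromosome (horizontal axis). Windows of chromosomes 2, 4 and 6 reach about 40 points below 0, and windows of chromosomes 4 and 8 lie more than 40 points above 0.

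Chromosomes 4 and 6 showed the steps most plainly, in segments chosen after their values were seen. Between 0 and 50 Mb of chromosome 4, the HT rank was higher at 2 and the SUDHL6 rank at 79 of 81 members. Between 50 and 150 Mb this turned, with HT higher at 101 and SUDHL6 at 8 of 109 members. From 150 Mb on, the median rank difference was 1.35 points over 38 members. Widths stepped likewise: the median was 1500 bp in HT and 2400 bp in SUDHL6 in the first segment, and 2400 bp in HT and 1500 bp in SUDHL6 in the second. On chromosome 6, SUDHL6 ranked higher at 223 of 229 members between 0 and 60 Mb, and the median difference was 2.74 points over the 166 members beyond.

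Agreement of scores differed between chromosomes. Spearman's rho between scores ran from 0.02 on chromosome 4 to 0.72 on chromosome 3, with a median of 0.64 over the 22 autosomes. Within the chromosome 4 segments it was 0.47, 0.59 and 0.57. Over all members in windows with at least 20, rho was 0.57, and 0.63 once the window's median rank was subtracted in each line. For widths the values were 0.31 and 0.32. Copy number was not measured here.

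EZH2 lay over few members, and about as often as over H3K4me3 islands in general. An HT EZH2 island overlapped 513 members, 7.41% (6.80 to 8.05%), against 8.05% of all HT H3K4me3 islands. A SUDHL6 EZH2 island overlapped 129 members, 1.86% (1.56 to 2.21%), against 2.16% of all HT H3K4me3 islands. Counted over the SUDHL6 partners the number was 132 (1.91%), against 1.89% of all SUDHL6 H3K4me3 islands. The shares are near these backgrounds and say nothing particular about the members. Members with EZH2 in HT alone numbered 495, those with EZH2 in SUDHL6 alone 111, and those with EZH2 in both lines 18. SUDHL6 EZH2 lay over 3.51% (2.09 to 5.49%) of members with HT EZH2 and over 1.73% (1.43 to 2.08%) of members without it. HT held 2523 EZH2 islands and SUDHL6 1506. With the HT list held to the 1506 islands of highest score, the HT share was 4.13% (3.67 to 4.62%).

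Among the 18 members with EZH2 in both lines, 4 lay between 140 and 150 Mb of chromosome 1, a segment that held 41 of the 6927 members and was chosen after its values were seen. The leading ones by shared EZH2 length were on chromosome 1 from 144338101 to 144341700 (3600 bp), covered in full by EZH2 of both lines, and from 149222551 to 149225550 (3000 bp), also covered in full by both. Their partners were 5550 and 4500 bp wide. The one of the leading 5 outside this segment was on chromosome 20 from 57224551 to 57228150 (3600 bp), where EZH2 covered 2250 bp in HT and 2400 bp in SUDHL6. H3K27me3 lay 7200 bp from it in HT and 8700 bp in SUDHL6. Mapping of reads in these regions was not checked against the input libraries.

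In HT, EZH2 was most frequent at the members with the highest H3K4me3 score. The share was 10.97% (9.54 to 12.5%) in HT score group 4, and 6.01%, 6.76% and 5.89% in groups 3, 2 and 1. In 10 bins of equal size by HT score, it was 13.6% (11.1 to 16.3%) in bin 10 (the highest), 9.81% in bin 9 and between 4.47% and 7.22% in the 8 bins below. Width moved with the score: the median width was 2850 bp in group 4 and 1350 bp in group 1. The part of width was not tested beyond the following classes. Within members of 3000 to below 4000 bp, 12.6% (10.2 to 15.2%) of the higher-scoring members and 7.28% (5.46 to 9.46%) of the lower-scoring members had EZH2. The shares of higher-scoring and lower-scoring members were 8.60% and 6.28% at 2250 to below 3000 bp, 6.84% and 5.71% at 1500 to below 2250 bp, and 6.64% and 7.36% at 750 to below 1500 bp. The higher-scoring members thus had the higher share in 3 of these 4 width classes. The intervals of the shares overlapped in every class but that of 3000 to below 4000 bp. By score per kb, groups 4 and 1 had 8.66% (7.38 to 10.1%) and 6.81% (5.67 to 8.10%), and groups 3 and 2 had 8.32% and 5.83%. The intervals of groups 4 and 1 overlap, while that of their difference, 1.85 points, ran from 0.066 to 3.64. The difference between groups 4 and 1 by score was 5.08 percentage points. It was 2.47 points with a width limit of 3000 bp, 2.87 points where 50% of the island had to be overlapped, and 6.96 points with a limit of 5000 bp.

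In SUDHL6 no such rise was seen. The share with SUDHL6 EZH2 was 1.73% (1.17 to 2.46%) in SUDHL6 score group 4 and 2.60% (1.90 to 3.46%) in group 1. By score per kb it was 1.10% (0.662 to 1.71%) in group 4 and 3.06% (2.30 to 3.98%) in group 1, on 19 and 53 islands. In each of 4 width classes of the partner from 750 to below 4000 bp, the lower-scoring members had the higher share. The intervals of the shares overlapped in every class but that of the widest difference. The difference was widest at 2250 to below 3000 bp, with 1.02% (0.441 to 1.998%) of the higher-scoring and 3.32% (2.18 to 4.82%) of the lower-scoring members, on 8 and 26 islands. Read against the SUDHL6 score, HT EZH2 lay over 10.3% of SUDHL6 score group 4 and 6.12% of group 1.

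**Figure D4:**
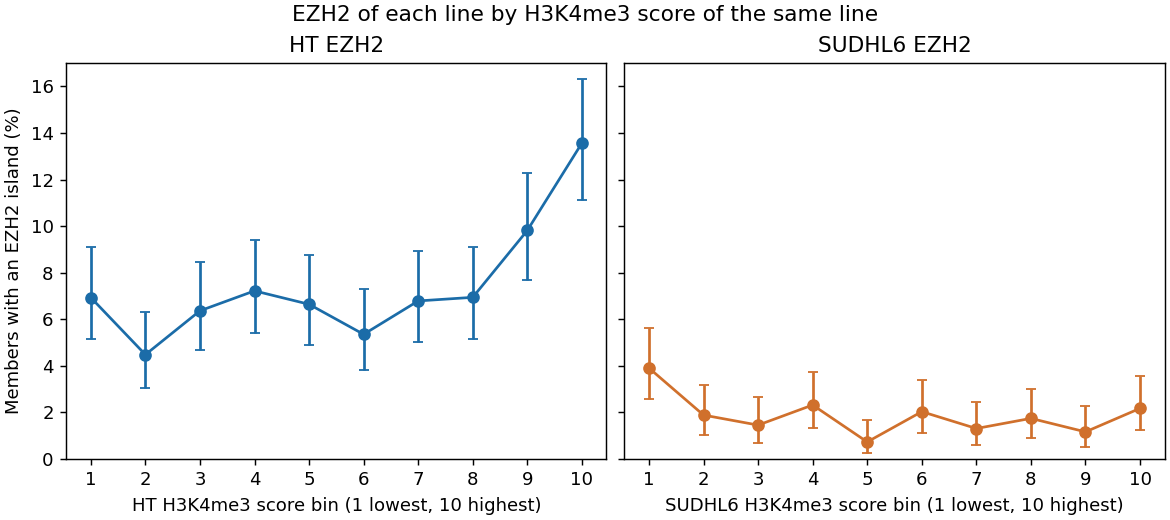
Percentage of members with an EZH2 island of HT (left) and SUDHL6 (right, same vertical scale) in 10 bins of H3K4me3 score of the same line (horizontal axis, 1 lowest), with exact 95% intervals for counting error. HT reaches 13.6% in bin 10, and SUDHL6 has its highest share, 3.90%, in bin 1.

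Where EZH2 lay at a member, its island was centred near that of H3K4me3. The centre of the EZH2 island lay 750 bp from that of the member at the median in HT and 825 bp in SUDHL6. The EZH2 island covered a median of 92.9% of the member in HT and 100% in SUDHL6. Of the 504 HT EZH2 islands over members, 23 (4.56%) touched HT H3K27me3 elsewhere along their length, against 59.9% of the other HT EZH2 islands, a contrast that the rule itself favours. The rule did not use SUDHL6 H3K27me3, but it asked for SUDHL6 H3K4me3 and left out HT H3K27me3. Of the 125 SUDHL6 EZH2 islands over members, 25.6% overlapped SUDHL6 H3K27me3, against 69.2% of the others. The others were not limited to H3K4me3 islands, and how far the rule sets this contrast was not tested.

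H3K27me3 of SUDHL6 was rare at members too. It overlapped 127 members, 1.83% (1.53 to 2.18%), against 3.02% of all HT H3K4me3 islands, a background that includes islands with HT H3K27me3. The share was 0.453% where overlaps had to span 50% of an island. Narrow HT islands without SUDHL6 H3K4me3 or HT H3K27me3 (2497 islands) had 3.84% (3.13 to 4.67%). SUDHL6 EZH2 lay over 11.8% (6.76 to 18.7%) of the 127 members with SUDHL6 H3K27me3 and over 1.68% (1.38 to 2.01%) of those without. The longest stretches were 2400 bp on chromosome 6, in the member from 33175501 to 33178800, and 2100 bp on the same chromosome, in that from 44231101 to 44234850. HT H3K27me3 lay 600 and 900 bp from these 2 members. On chromosome 22 from 38597251 to 38599200, SUDHL6 H3K27me3 covered all 1950 bp of the member and SUDHL6 EZH2 1050 bp, and HT H3K27me3 was 131550 bp away.

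The median distance from a member's edge to the nearest H3K27me3 island was 83400 bp in HT and 105450 bp in SUDHL6, with middle ranges of 33300 to 185400 bp and 30675 to 379950 bp. For all autosomal HT H3K4me3 islands the medians were 86700 bp in HT and 126900 bp in SUDHL6, so members did not lie farther away than H3K4me3 islands in general. A distance of 0 is removed by the rule in HT only, except for 14 members that HT H3K27me3 adjoined without overlap. Without the members that overlap SUDHL6 H3K27me3, the SUDHL6 median was 109125 bp and the middle range began at 33450 bp. H3K27me3 lay nearer in HT at 3772 members and nearer in SUDHL6 at 3081. HT had 16919 H3K27me3 islands and SUDHL6 13159, and with both lists held to the same number of islands by score the HT median was 99000 bp. With each list held to its 50% of highest score, the medians were 134325 bp in HT and 223575 bp in SUDHL6.

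The lines differed more at the far end than near the members. H3K27me3 within 10 kb was found at 8.30% of members in HT and 11.8% in SUDHL6, against 10.9% and 12.1% of all autosomal HT H3K4me3 islands. The rule removes overlaps in HT only, and the HT background still holds islands that overlap HT H3K27me3. Without the members that overlap SUDHL6 H3K27me3, the SUDHL6 share was 10.1%. In both lines at once it was within 10 kb at 247 members, in HT alone at 328 and in SUDHL6 alone at 568. These counts include the members that overlap SUDHL6 H3K27me3. Members over 1 Mb from H3K27me3 numbered 231 (3.33%) in HT and 979 (14.1%) in SUDHL6, and 142 in both, against 5.37% in HT and 18.5% in SUDHL6 of all autosomal HT H3K4me3 islands. Members were thus less often this far away than H3K4me3 islands in general. On chromosome 4 the median distance was 171000 bp in HT and 2247900 bp in SUDHL6. Between 50 and 150 Mb of that chromosome, where HT ranked higher in H3K4me3, it was 163500 bp in HT and 27454500 bp in SUDHL6. On chromosome 17 the order was the other way, with 52350 bp in HT and 39450 bp in SUDHL6. Over members the distances in the lines had a Spearman's rho of 0.48, and neighbouring members can share the same nearest island.

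The members farthest from HT H3K27me3 gathered in a few places. The first 4 lay on chromosome 3, the farthest from 87276001 to 87277050 (1050 bp), 10263450 bp from HT and 11645550 bp from SUDHL6 H3K27me3, and HT EZH2 covered it in full. The others of the 4 lay between 88105951 and 90326100 with no EZH2 of either line. At the near end, the member on chromosome 1 from 43421251 to 43424850 (3600 bp) adjoined H3K27me3 at 0 bp in both lines, with no overlap. That on chromosome 16 from 2034001 to 2035050 adjoined it in HT and was covered over all its 1050 bp by it in SUDHL6.

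Members with higher H3K4me3 scores were less often close to H3K27me3, with width not held equal between the score groups. The share within 10 kb of HT H3K27me3 was 5.48% in HT score group 4 and 10.9% in group 1. The share within 10 kb of SUDHL6 H3K27me3 was 8.26% in SUDHL6 score group 4 and 16.5% in group 1. The SUDHL6 shares include members that overlap SUDHL6 H3K27me3. Median distances in groups 4 and 1 were close, at 86700 and 85800 bp in HT and 103650 and 105000 bp in SUDHL6. Members with EZH2 lay nearer to H3K27me3 in both lines. The median was 73350 bp with and 84525 bp without EZH2 in HT. It was 37650 bp with and 106500 bp without EZH2 in SUDHL6, and 69600 bp for the 114 members with SUDHL6 EZH2 that did not overlap SUDHL6 H3K27me3.

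Around the members, H3K27me3 coverage rose with distance, while EZH2 coverage was highest inside the members and lowest a few kb from their edges. HT H3K27me3 covered 0.322% of bases within 1 kb of the member's edges, 1.25% at 3 to 5 kb, 1.79% at 10 to 20 kb and 2.91% at 50 to 100 kb. SUDHL6 H3K27me3 covered 0.602% of the bases inside members, 1.51% within 1 kb, 1.95% at 3 to 5 kb, 3.03% at 10 to 20 kb and 4.16% at 50 to 100 kb. The average over the autosomes, between the outermost islands, was 1.94% in HT and 1.83% in SUDHL6, so coverage near members was below it and at 50 to 100 kb above it in both lines. In HT the low coverage next to the members is partly set by the rule. EZH2 covered 6.28% of bases inside members in HT, 3.97% within 1 kb 0.866% at 5 to 10 kb and 0.967% at 50 to 100 kb, against an average of 0.391%. In SUDHL6 it covered 1.45% inside, 1.09% within 1 kb, 0.542% at 3 to 5 kb and 0.949% at 50 to 100 kb, against 0.313%.

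**Figure D5:**
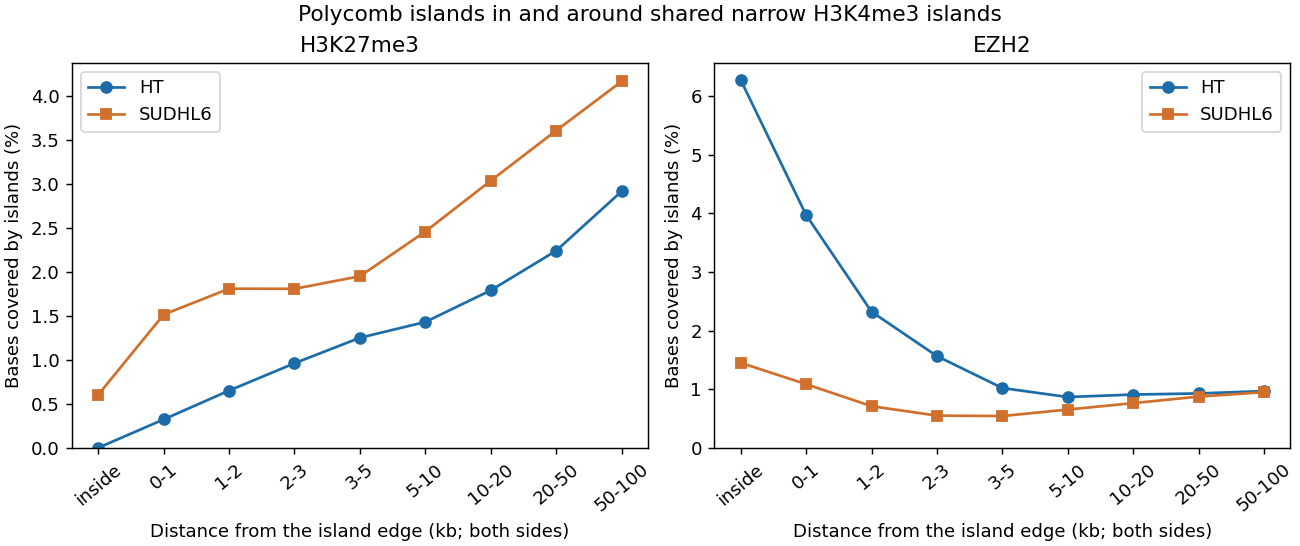
Percentage of bases covered by H3K27me3 (left) and EZH2 (right) islands of HT and SUDHL6 (vertical axis) inside members and by distance from their edges (horizontal axis, kb, both sides joined). H3K27me3 rises to 2.91% in HT and 4.16% in SUDHL6 at 50 to 100 kb, and EZH2 is highest inside, at 6.28% in HT and 1.45% in SUDHL6.

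Other classes of HT islands were set beside the members, with no test. Narrow HT islands without SUDHL6 H3K4me3 or HT H3K27me3 (2497) were narrower and lower in rank than members, with medians of 1650 bp and the 15.8th percentile of the HT list. HT EZH2 lay over 3.60% (2.91 to 4.41%) of them, less than over members. Their median distance to H3K27me3 was 123300 bp in HT and 276600 bp in SUDHL6, farther than that of members in both lines. SUDHL6 H3K27me3 covered 2.64% of bases within 1 kb of them and 2.57% at 50 to 100 kb, without the rise seen around members. HT islands of 4000 bp or wider that were shared and had no HT H3K27me3 (717) had HT EZH2 at 14.8% (12.3 to 17.6%) and SUDHL6 EZH2 at 3.07% (1.93 to 4.61%). Their partners were narrower than they were, with a median ratio of HT over SUDHL6 of 1.45 that the choice of wide HT islands favours, and more often numbered 2 or more (8.09%, against 0.318% of members). Between the lines, rho was 0.42 for their scores and 0.58 for their scores per kb, the reverse of the order among members.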

How the data were processed

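For every library the authors deposited a list of islands with a whole-number score each. The submitters' processing notes name SICER and the build hg19. Per the deposited file names, the window was 150 bp, the gap 450 bp and the FDR 1E-7. Aligner, filters, control and depth are not given in the sources used here, which leaves precision unknown. The 2 input samples were not used here. Positions are hg19, counted from 1, and width is end + 1 - start.

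Islands overlapped when they shared at least 1 bp. Distances are the bases between edges. The 4 score groups and 10 score bins have equal sizes, with ties split by genome order. Named regions were the 5 leading members of each of 10 orderings (score, relative width, EZH2 of both lines, SUDHL6 H3K27me3, distance, rank difference), of which the text gives some. The members, lists and measures were chosen with earlier results of these data known, and windows, segments, width classes and score bins after values were seen. The membership and distance steps were tested on 10582 simulated islands and were right for 100% of them. Planned counts of transcription starts and gene lists needed genes on hg19 and were not run. Python 3.11.15, numpy 2.4.6, pandas 2.3.3, scipy 1.17.1 and matplotlib 3.10.9 were used.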

Additional observations from a re-analysis of the deposited data

Results flagged for a closer look

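The EZH2 share of members was higher at the highest than at the lowest H3K4me3 scores in HT, with no such rise in SUDHL6. By score, the main SUDHL6 interval below includes no difference, whereas that by score per kb lies wholly on the side of a fall. So did the interval by score with a width limit of 3000 bp (-1.37 points, -2.49 to -0.31). Leaving out chromosomes 6, 7, 9 and 10 likewise gave a fall by score (-1.43 points, -2.53 to -0.39). In the other settings run by score, the SUDHL6 interval included no difference. Between members in the highest and the lowest of 4 score groups of the same line (highest minus lowest), the difference was 5.08 percentage points in HT (95% interval 3.24 to 6.94) and -0.87 in SUDHL6 (-1.87 to 0.11). By score per kb the differences were 1.85 points in HT (0.066 to 3.64) and -1.96 in SUDHL6 (-2.96 to -1.02). The intervals (Newcombe) cover counting error only. The difference between the lines was not tested, since each line had 1 library.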

How the results depend on the processing

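Of the 91 alternatives run, 67 gave values close to the main one (a count within 1.5 times, a rho within 0.05, other values within the main 95% interval). A turn of direction could be called only for the rhos and for the HT difference between score groups 4 and 1. None was seen there. Counts, shares and distances have no direction to turn. A width limit of 3000 bp gave a rho of widths of 0.25, a HT EZH2 share of 6.77% and a difference between HT score groups 4 and 1 of 2.47 points, and a limit of 5000 bp gave a difference of 6.96 points. With an overlap of 50% of the island, rho of widths was 0.40, that difference 2.87 points and the share with SUDHL6 H3K27me3 0.453%. With each list held to its 50% of highest score, 3840 members were left, rho was 0.26 for widths and 0.48 for scores, and the median distance to H3K27me3 was 134325 bp in HT and 223575 bp in SUDHL6, since fewer islands remain to be met. By score per kb, rho of scores was 0.37 and the differences between groups 4 and 1 were 1.85 points in HT and -1.96 in SUDHL6. The HT median was 99000 bp with H3K27me3 lists of equal island number and 93900 bp with lists of equal covered length. With HT EZH2 held to the SUDHL6 number of islands, the HT share was 4.13%. Over 10 Mb from chromosome ends, the medians were 87750 bp in HT and 133350 bp in SUDHL6, and 1.40% of members overlapped SUDHL6 H3K27me3. Chosen after the data were seen, no width limit gave a rho of widths of 0.37, and the rule applied from SUDHL6 gave a HT EZH2 share of 8.17%. With windows of 10 Mb, tried before those of 20 Mb, r of neighbouring windows was 0.81, and 14 windows were 10 points or more in HT's favour and 18 in SUDHL6's. Planned counts by transcription starts were not run. Where no cause is named, the cause was not tested. No paired analysis was possible because each line and antibody had 1 library. Unknown depth limits every missing overlap, since an island that was not called is not absence of the mark.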
